A study of Mus musculus with 3 samples.

Results

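The cells described here were fibroblasts of the mouse aorta chosen by rule from the deposited UMI counts (unique molecular identifiers, 1 per captured RNA molecule), with Dpp4 and Pi16 among the genes of the rule. A barcode was kept with at least 200 genes detected, less than 20% of its UMIs from mitochondrial genes and at least 2000 UMIs. It was gated as a fibroblast when the matrix proteoglycan gene Dcn held at least 0.5% of its UMIs, the contractile genes Acta2 and Tagln together held less than 1%, and the macrophage genes C1qa, C1qb and C1qc together had fewer than 3 UMIs. The UMIs of Dpp4, Pi16, Sdk1, Pla1a, Ebf2 and Opcml were then added up, those of Hhip, Inmt, Tspan11 and Cpxm1 were subtracted, and a cell with a difference of at least 2 was a member. There were 1360 members (608 from APOE2, 276 from APOE3 and 476 from APOE4) among 2844 gated fibroblasts, 25081 cells over the UMI minimum and 28506 barcodes. The other gated fibroblasts were 977 cells with a difference of -2 or lower, called Hhip/Inmt fibroblasts below, and 507 cells between.

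The 3 groups were male gene-replacement mice on the C57BL/6J background. Each group carried 1 human isoform (APOE2, APOE3 or APOE4) at the Apoe locus, and no group kept the mouse gene. All groups were fed a Western diet (42% fat, 0.2% cholesterol) for 16 weeks from the age of 12 weeks. Whole aortas, freed of outer fat, were dissociated and pooled into 1 droplet library per genotype, with 6 mice in the APOE2 pool, 5 in that of APOE3 and 7 in that of APOE4. With 1 pooled library per genotype, genotype and library cannot be told apart, no difference between genotypes could be tested, and every interval below is a 95% interval that covers counting error only.

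Fibroblasts with Pi16 and Dpp4 are found in the outer coat of vessels and in the connective tissue sheets of many organs. They are described as a progenitor-type state, set apart by surface proteins such as Cd34, Ly6a and Cd55, from which more specialised fibroblasts can form. Dpp4 is a cell-surface peptidase that trims chemokines and hormones, and Pi16 is a membrane-anchored protein of the cysteine-rich secretory family. On mm10, the build of the files, Dpp4 lies at chr2:62330073-62412231 and Pi16 at chr17:29317680-29330593. In the present data the layers of the wall were not separated, so the place of the cells in the adventitia was not measured.

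The members carried fibroblast genes in all 3 libraries. Pdgfra, the receptor for platelet-derived growth factor that marks most fibroblasts, stood at 249, 334 and 297 CPM in APOE2, APOE3 and APOE4 (intervals 238 to 260, 315 to 355 and 282 to 313), where CPM is the UMIs of a gene per 1000000 UMIs of the class in that library. Col1a2, a chain of the main fibrillar collagen, stood at 2022, 2922 and 2668 CPM, and Lum, a collagen-binding proteoglycan, at 1131, 1045 and 882 CPM. Markers of some other cell types were low in the members, and those of others were not. The 5 smooth muscle genes Myh11, Cnn1, Des, Lmod1 and Smtn together reached 112 to 181 CPM in the members against 5517 to 5742 CPM in smooth muscle cells, and 39, 14 and 24 members held 5 or more of these UMIs. The 6 macrophage genes together stayed between 6.31 and 9.53 CPM, and the 4 adipocyte genes between 0 and 0.902 CPM, with none of the 4 seen in APOE2. The 6 mesothelial genes together were at 68.3, 24.7 and 3.25 CPM, and 1 APOE2 member held 159 of these UMIs. The 4 pericyte genes together reached 143, 127 and 167 CPM, against 535, 713 and 442 CPM in smooth muscle cells. The 4 erythroid genes together reached 210, 697 and 356 CPM, in APOE3 above the level of Pdgfra, and 1 APOE3 member held 2295 of these UMIs.

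The name Dpp4 describes fewer of these cells than the name Pi16. Pi16 was seen in 94.4%, 99.3% and 99.4% of the members in APOE2, APOE3 and APOE4, and gave 71.8%, 80.9% and 82.3% of the UMIs added up by the rule. Dpp4 was seen in 12.2% (74 cells), 19.9% (55 cells) and 7.98% (38 cells). When every cell was thinned to 2000 UMIs, the shares were 77.6%, 92.8% and 90.3% for Pi16 and 5.26%, 9.78% and 3.36% for Dpp4. In the Hhip/Inmt fibroblasts Pi16 was seen in 73.5%, 77.0% and 79.2%, or 44.8%, 48.3% and 49.0% after thinning. The cells between held it in 53.5%, 70.6% and 83.9% without thinning. Most cells of each fibroblast class thus held Pi16 at full depth. Smooth muscle cells, which should lack both genes, held Pi16 in 0.416%, 1.58% and 0.323% and Dpp4 in 0.0198%, 0.0222% and 0% after the same thinning, with full median depths of 14600, 19750 and 15392 UMIs against 11187, 11263 and 9527.5 UMIs in the members. Dpp4 was also carried by lymphocytes, at 9.18%, 5.56% and 11.4% after thinning, so the gene by itself did not mark a fibroblast.

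**Figure D1:**
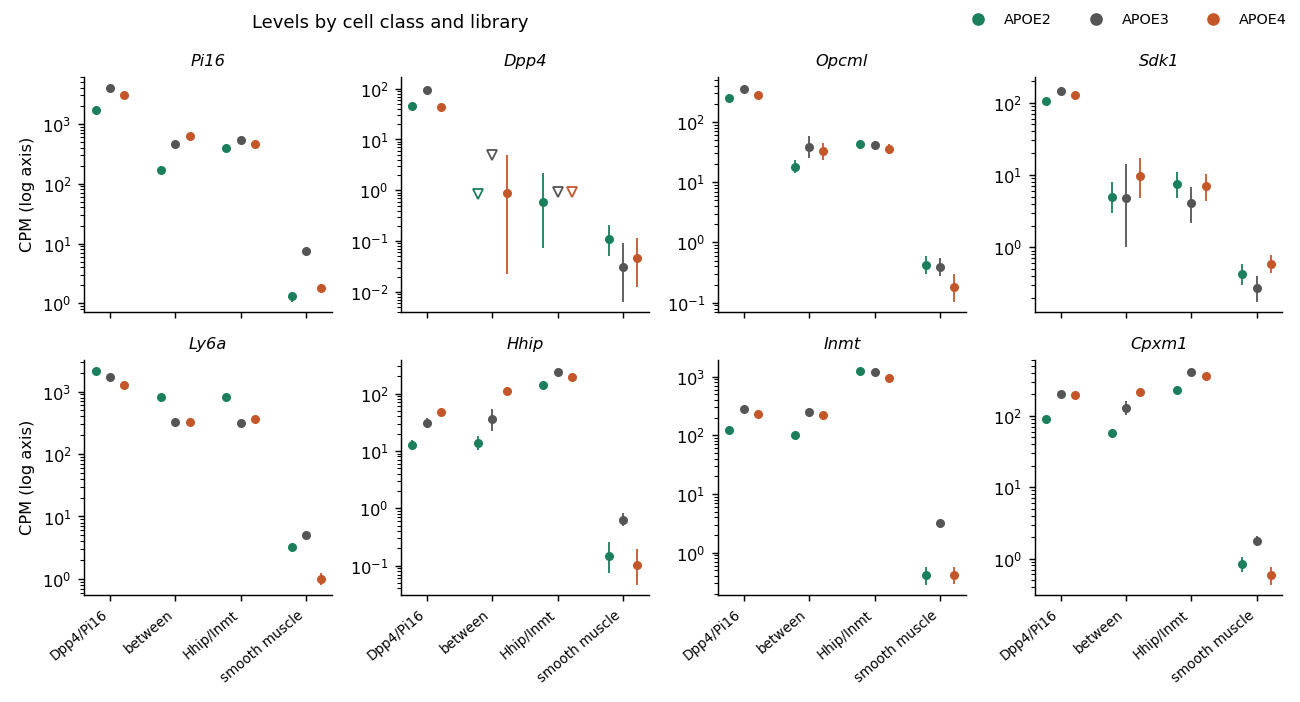
Levels (CPM, log axis) of 8 marker genes in the members, the Hhip/Inmt fibroblasts, the cells between and smooth muscle cells, with 1 point per library and exact Poisson 95% intervals; an open triangle marks 0 UMIs, drawn at the limit that 3 counts would set. Pi16, Dpp4, Opcml, Sdk1 and Ly6a were higher in the members than in the Hhip/Inmt fibroblasts in all 3 libraries, and Hhip, Inmt and Cpxm1 were lower; all but Ly6a were used to choose the cells.

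Of the markers named for these cells, only Ly6a was not used by the rule. Ly6a, the Sca-1 surface antigen of progenitor-type fibroblasts, stood at 2127 CPM (2095 to 2160), 1733 CPM (1689 to 1779) and 1275 CPM (1243 to 1307) in the members of APOE2, APOE3 and APOE4. In the Hhip/Inmt fibroblasts it stood at 826, 317 and 365 CPM, and in smooth muscle cells at 3.25, 5.07 and 1.01 CPM. The members were thus the higher of the fibroblast classes in each library, but these same cells had been split by the rule, so that difference is a description.

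The values the rule used were the following. Pi16 stood at 1722, 3931 and 3005 CPM in the members and 394, 530 and 468 CPM in the Hhip/Inmt fibroblasts. Dpp4 stood at 46.2 CPM (41.6 to 51.2), 92.9 CPM (82.8 to 104) and 42.8 CPM (37.2 to 49.0) in the members. In the Hhip/Inmt fibroblasts it had 2 UMIs in APOE2 and 0 UMIs in APOE3 and APOE4, which allows up to 0.931 and 0.908 CPM. Opcml and Sdk1 both encode cell adhesion proteins of the immunoglobulin superfamily. Opcml stood at 247, 348 and 275 CPM in the members against 42.2, 41.0 and 35.7 CPM, and Sdk1 at 106, 147 and 128 CPM against 7.49, 4.04 and 6.96 CPM. Pla1a, a phospholipase of phosphatidylserine, stood at 54.5, 98.9 and 49.1 CPM against 0.898, 0.310 and 0.908 CPM, and Ebf2, a transcription factor of mesenchymal precursors, at 224, 243 and 150 CPM against 90.7, 58.7 and 51.8 CPM. The genes that count against membership were not absent from the members. Inmt, a methyltransferase, stood at 122, 280 and 230 CPM against 1226, 1198 and 946 CPM, and Cpxm1, a carboxypeptidase-like secreted protein, at 90.0, 201 and 195 CPM against 231, 407 and 359 CPM. Hhip, which binds hedgehog ligands, stood at 12.6, 31.0 and 47.7 CPM against 140, 232 and 194 CPM, and the tetraspanin gene Tspan11 at 96.1, 115 and 143 CPM against 222, 238 and 214 CPM. In all, 370, 224 and 363 members, which is 60.9%, 81.2% and 76.3% of them, held at least 2 UMIs of these opposing genes.

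The count of members rested mostly on Pi16. Without Pi16 in the sum, 280, 77 and 95 cells qualified, all of them members under the full rule, which is 46.1% and 27.9% of the full count in APOE2 and APOE3 and 95 of 476 in APOE4. Those cells, chosen by the other genes of the rule, stood at 2030, 6490 and 5104 CPM for Pi16. The cells then classed as Hhip/Inmt stood at 903, 1213 and 1278 CPM. That class then held 629, 493 and 735 cells, against 344, 296 and 337 under the full rule. The classes compared thus changed with the gene left out, and these values are a description only. Without Dpp4 in the sum, 603, 276 and 476 cells qualified, and Dpp4 in them stood at 37.8, 92.9 and 42.8 CPM against 0.599, 0 and 0 CPM. Leaving Opcml out gave Opcml levels of 242, 343 and 268 CPM against 53.4, 58.7 and 54.0 CPM.

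Cells lay on both sides of the limit of membership with no gap between them. Its median among the members was 12, 15 and 12 UMIs in APOE2, APOE3 and APOE4, and the highest values were 286, 391 and 341 UMIs. Just inside the threshold, at a difference of 2, lay 56, 20 and 34 cells, and just outside, at 1, lay 88, 17 and 54 cells. Ly6a stood at 1092, 537 and 468 CPM in the cells just inside and at 849, 518 and 305 CPM in those just outside. Cd55, a complement-regulating surface protein, stood at 62.5, 44.7 and 31.4 CPM just inside and 57.4, 11.6 and 54.6 CPM just outside, with 2 to 57 UMIs behind each value.

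**Figure D2:**
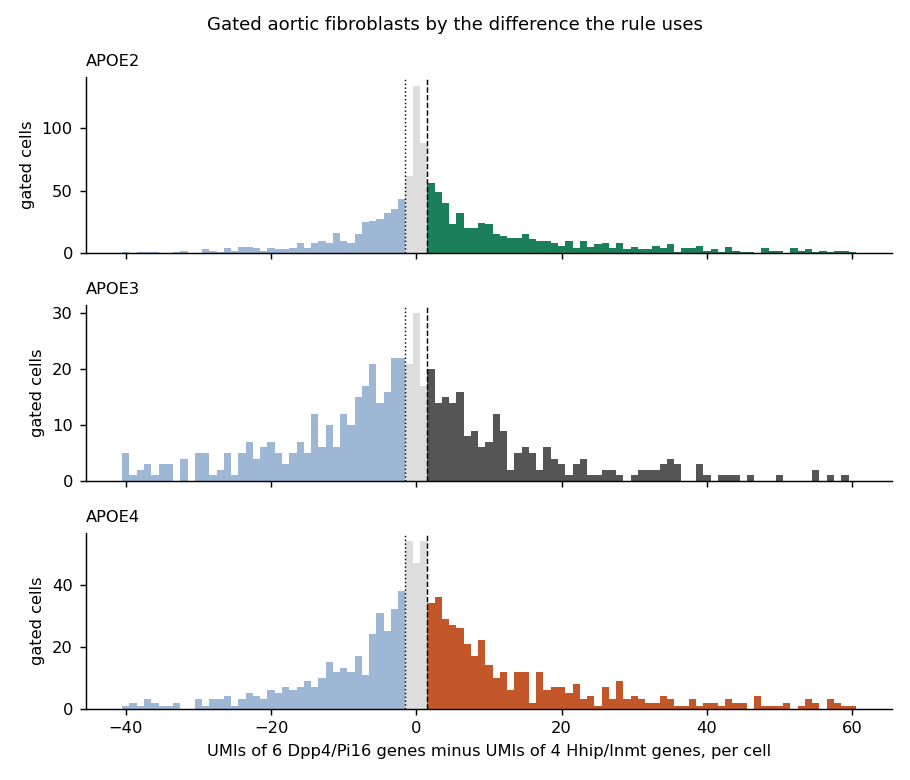
Number of gated fibroblasts (vertical axis) at each difference in UMIs between the genes that count for and against membership (horizontal axis, drawn from -40 to 60 UMIs, cells beyond not drawn), 1 panel per library; the dashed line marks the lower limit of the members and the dotted line the upper limit of the Hhip/Inmt fibroblasts. Cells just inside and just outside the limit were present in every library (56, 20 and 34 against 88, 17 and 54 in APOE2, APOE3 and APOE4).

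The share of fibroblasts that were members was close in APOE2 and APOE4 and lower in APOE3. Members made up 49.2%, 43.1% and 49.2% of the gated fibroblasts in APOE2, APOE3 and APOE4, with exact Clopper-Pearson intervals of 46.4 to 52.0, 39.2 to 47.1 and 46.0 to 52.4%. The APOE3 interval overlapped the other two. Of all cells that passed the filter, they were 5.16% (4.77 to 5.58), 4.10% (3.64 to 4.60) and 5.77% (5.28 to 6.30). Thinning every cell to 2000 UMIs before the rule was applied lowered the shares of gated fibroblasts to 33.7%, 31.1% and 35.7%, APOE3 again the lowest. Without Pi16 in the rule they were 22.7%, 12.0% and 9.81%, and APOE4 was then the lowest. Cells with a high doublet score, a score for droplets that may have held 2 cells, were 19.6%, 12.0% and 9.87% of the members. They were 20.3%, 13.9% and 13.5% of all gated fibroblasts. High meant a preset number of top scores per library, set by its number of barcodes. Their share of all cells, 9.83%, 5.80% and 7.18%, was thus fixed in advance. The libraries shared 23 to 30 cell barcodes by pair, and 1 barcode was a member in both APOE2 and APOE3.

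Compared with the Hhip/Inmt fibroblasts of the same library, the members were higher in a set of progenitor-type genes and lower in several matrix proteoglycan and positional genes. Since the rule divided the cells along this line, the comparison is a description with no test, and the genes of the rule were left out. Of 7362 genes with at least 100 UMIs in both classes together in every library, 66 (0.896%) were 2-fold or more higher in the members in all 3 libraries, and 30 (0.407%) were 2-fold or more lower. In one direction in all 3 libraries by any amount were 1628 higher genes (22.1%) and 2146 lower genes (29.1%).

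Several of the named higher genes encode surface or secreted proteins. Cd55 stood at 156, 250 and 147 CPM in the members of APOE2, APOE3 and APOE4 and at 29.0, 17.7 and 15.7 CPM in the Hhip/Inmt fibroblasts, log2 ratios of 2.43 (2.13 to 2.74), 3.82 (3.43 to 4.23) and 3.22 (2.81 to 3.65). Sema3c, a secreted guidance protein, stood at 164, 443 and 245 CPM against 48.5, 30.4 and 31.8 CPM, log2 ratios of 1.75, 3.86 and 2.94. Cd248, the membrane glycoprotein endosialin of mesenchymal cells, stood at 140, 291 and 162 CPM against 31.7, 27.9 and 34.2 CPM. In each of these genes the lowest member level lay above the highest Hhip/Inmt level. Smpd3, a neutral sphingomyelinase, had log2 ratios of 2.74, 4.92 and 3.65, and the adhesion receptor gene Adgrd1 had 2.66, 4.34 and 3.59. Ly6c1, a relative of Ly6a, had 1.95, 4.35 and 3.01.

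Matrix genes were among the named higher genes as well. Fn1, which encodes fibronectin, stood at 513, 633 and 416 CPM in the members and at 147, 57.4 and 102 CPM in the Hhip/Inmt fibroblasts. In APOE2, however, the cells just outside the limit of membership stood at 1869 CPM of Fn1, against 357 CPM just inside. In APOE3 and APOE4 those just outside stood at 52.3 and 66.0 CPM, against 281 and 140 CPM just inside. High Fn1 was thus not particular to the members in APOE2. Vcan, the large proteoglycan versican, had log2 ratios of 1.70, 2.29 and 1.93, and Emilin2, an elastic fibre glycoprotein, had 2.09, 3.49 and 2.67. The remaining named higher genes were Anxa3, a calcium-dependent membrane-binding protein (1.70, 2.76 and 2.13), Tppp3, a tubulin-binding protein (2.18, 3.13 and 1.93), and the interferon-inducible Ifi27l2a (1.72, 3.08 and 2.31). For all 12 named higher genes the log2 ratio was highest in APOE3.

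**Figure D3:**
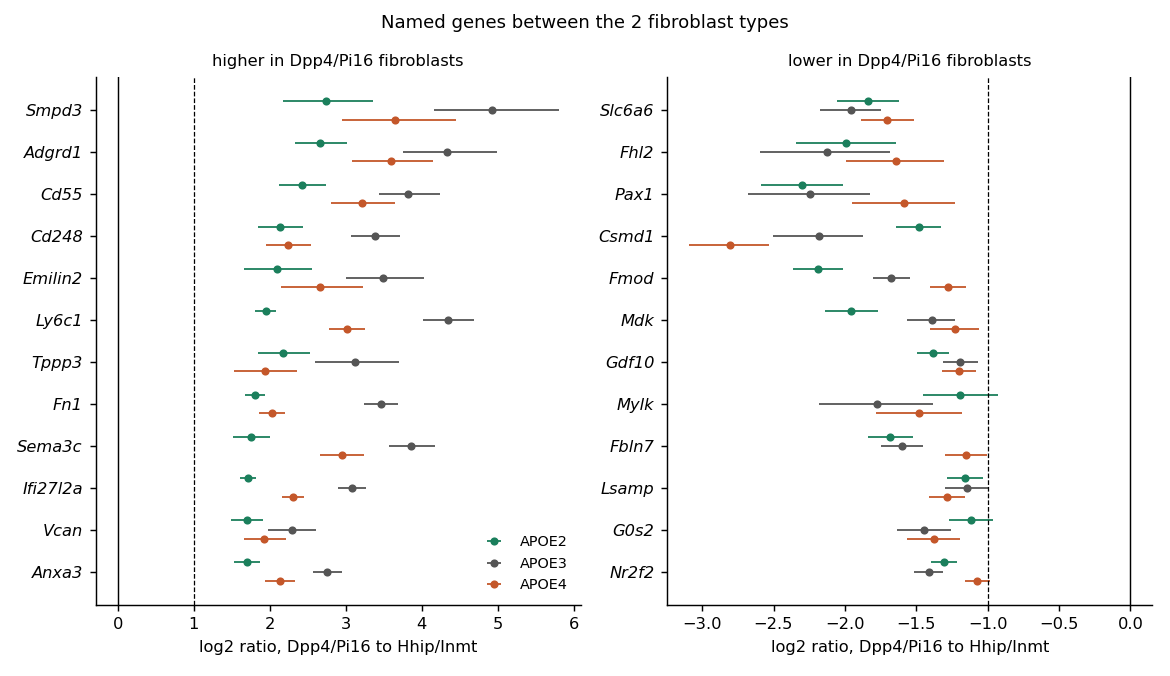
Log2 ratio of the level in the members to that in the Hhip/Inmt fibroblasts of the same library for the 12 highest and 12 lowest named genes, 1 point per library with its 95% counting interval; the dashed lines mark 2-fold. The higher genes lie between 1.70 and 4.92 and the lower genes between -2.81 and -1.07, with no library on the other side of 0.

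The 12 named lower genes were of several kinds. Slc6a6, the taurine transporter, stood at 36.5, 68.2 and 71.2 CPM in the members and at 130, 265 and 232 CPM in the Hhip/Inmt fibroblasts, log2 ratios of -1.84, -1.96 and -1.70. Fmod, the collagen-binding proteoglycan fibromodulin, stood at 53.1, 189 and 164 CPM against 242, 603 and 398 CPM, log2 ratios of -2.19, -1.67 and -1.28. Gdf10, a secreted member of the TGF-beta superfamily, had -1.39, -1.19 and -1.20, and Mdk, the growth factor midkine, had -1.96, -1.39 and -1.23. The nuclear receptor gene Nr2f2 had -1.31, -1.41 and -1.07, and Pax1, a paired-box transcription factor of the embryonic axial skeleton, had -2.30, -2.24 and -1.59. Fhl2, a LIM-domain cofactor, had -1.99, -2.13 and -1.65, and Mylk, myosin light chain kinase, had -1.19, -1.77 and -1.48. The others were Csmd1, a complement-regulating membrane protein (-1.48, -2.18 and -2.81), the matrix gene Fbln7 (-1.68, -1.60 and -1.15), the adhesion gene Lsamp (-1.16, -1.14 and -1.29), and G0s2, an inhibitor of triglyceride lipase (-1.12, -1.45 and -1.38).

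Of 37 progenitor-type fibroblast genes listed apart from the rule, 33 had enough UMIs. Of these 33, 23 were 2-fold or more higher in all 3 libraries and none lower, beside 0.896% and 0.407% of all genes. The list had a median log2 ratio of 1.63, against -0.03 over all 7362 genes, and 32 of the 33 were higher in every library. Among the 10 that did not reach 2-fold everywhere were Cd34 (0.85, 1.45 and 1.01), Clec3b (0.72, 1.89 and 1.58), Il33, a nuclear alarmin cytokine (0.87, 0.70 and 0.61), and Igfbp6, a binding protein of insulin-like growth factor 2 (0.81, 0.94 and 0.79). Scara5, a ferritin receptor, was the exception in sign, with -0.04, 0.81 and 0.65. This list was chosen with earlier results of these cells known. For 20 genes linked to tissue-resident-type fibroblasts, 18 had enough UMIs, 1 (G0s2) was 2-fold lower and none was higher, with a median of -0.24. Cxcl12, a chemokine that retains leukocytes, had -0.88, -1.07 and -0.85, while Col15a1, a basement membrane-associated collagen often used to mark that state, had 0.00, -0.06 and -0.21.

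The matrix lists differed in direction. Over all 7362 genes 0.896% were 2-fold or more higher and 0.407% lower in all 3 libraries. Of 20 elastic fibre and microfibril genes, 4 were 2-fold higher and none lower: Fbn1, the core microfibril protein (1.94, 2.17 and 1.59), Fbln2 (1.77, 1.69 and 1.44), Mfap5 (1.25, 1.46 and 1.19) and Emilin2. Of 8 small leucine-rich proteoglycans, which bind and space collagen fibrils, 7 were lower in every library and 1, Fmod, by 2-fold, with a median of -0.54; the exception, Aspn, had -0.03, -0.14 and 0.07. Lum had -0.54, -1.09 and -0.95. None of 17 collagen chains passed 2-fold, and 9 were higher and 2 lower in every library, with a median of 0.15. Of 16 proteases and inhibitors, 2 were 2-fold higher, the proprotein convertases Pcsk5 and Pcsk6.

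The Hox genes, which keep a record of position along the body axis, were lower as a group than in the Hhip/Inmt fibroblasts. Of 21 listed, 10 had enough UMIs and all 10 were lower in the members in every library, beside 29.1% of all genes. The median log2 ratio was -0.84. The list summed to 204, 272 and 255 CPM in the members and 419, 462 and 358 CPM in the Hhip/Inmt fibroblasts. It summed to 152, 320 and 282 CPM in the cells between and 202, 240 and 260 CPM in smooth muscle cells. Hoxb7 stood at 9.69, 12.3 and 11.2 CPM in the members and at 24.6, 25.1 and 23.6 CPM in the Hhip/Inmt fibroblasts, and was the gene of the list that passed 2-fold in all 3 libraries (-1.34, -1.03 and -1.08). The region of the aorta from which each cell came was not recorded.

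Signalling and other lists were read beside all 7362 genes, of which 0.896% were 2-fold or more higher and 0.407% lower in all 3 libraries. In the Wnt list Dact2, an intracellular Wnt and TGF-beta antagonist, was higher (3.66, 4.85 and 4.73) and Rspo3, a secreted Wnt enhancer, was lower (-3.95 and -3.64 in APOE3 and APOE4, with an interval of -2.05 to -0.95 in APOE2), out of 8 genes with enough UMIs. Rspo3 stood at 6.79, 4.51 and 3.45 CPM in the members and 19.2, 69.5 and 43.0 CPM in the Hhip/Inmt fibroblasts. In the chemokine list, 1 of 10 was higher, the scavenging receptor gene Ackr3 (1.37, 1.49 and 1.69), and in the complement list 1 of 10, Cd55. No gene passed 2-fold among 13 of the BMP and TGF-beta pathway, 7 of the IGF axis, 12 of lipid handling, 5 of sterol synthesis, or 18 immediate early and heat shock genes. Among 15 fibroblast transcription factors Creb5 was higher (1.04, 2.36 and 1.34), and among 9 interferon-stimulated genes Ifi27l2a was.

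Members with a larger choosing difference had higher levels of several progenitor-type genes that the rule did not use. The members were set into 3 ranges of the difference per 10000 UMIs of the cell: under 10, 10 to 30, and 30 or more. These limits were chosen after the values were seen, each range is a stretch of one scale and no cell type of its own, and 44, 17 and 48 members lay between 25 and 35. The top range held 18.6% (15.6 to 21.9) of the APOE2 members, 33.7% (28.1 to 39.6) of the APOE3 members and 26.5% (22.6 to 30.7) of the APOE4 members, with the APOE2 interval below the other two. The lowest range held 45.2%, 38.4% and 41.4%.

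Dpp4, which the rule used, was seen in 41.6%, 51.6% and 28.6% of the top-range members of APOE2, APOE3 and APOE4, in 9.55%, 5.19% and 0.654% of the middle range and in 2.18%, 2.83% and 0.508% of the lowest. Of genes the rule did not use, Cd55 stood at 504, 529 and 340 CPM in the top range, 97.2, 80.5 and 65.9 CPM in the middle and 63.3, 50.4 and 60.2 CPM in the lowest. Sema3c stood at 513, 973 and 634 CPM in the top range against 50.9, 84.8 and 58.3 CPM in the lowest. Cd248 stood at 396, 626 and 379 CPM against 47.2, 52.9 and 44.1 CPM. For these 3 genes the step from the middle to the top range was larger than the step below it in each library.

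Ly6a was spread more evenly. It stood at 3182, 2935 and 2361 CPM in the top range, 2458, 1421 and 1150 CPM in the middle and 1470, 591 and 566 CPM in the lowest, so that the libraries lay closest together at the top. Fos, an immediate early transcription factor gene, ran the other way, at 438, 494 and 1917 CPM in the top range and 941, 1235 and 3106 CPM in the lowest. Median depth was 12791, 13905 and 11729 UMIs in the top range and 10679, 10885.5 and 9063 UMIs in the lowest, and its part in these differences was not tested. High doublet scores were held by 9.73%, 7.53% and 10.3% of the top range and by 20.4%, 14.2% and 11.7% of the lowest.

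**Figure D4:**
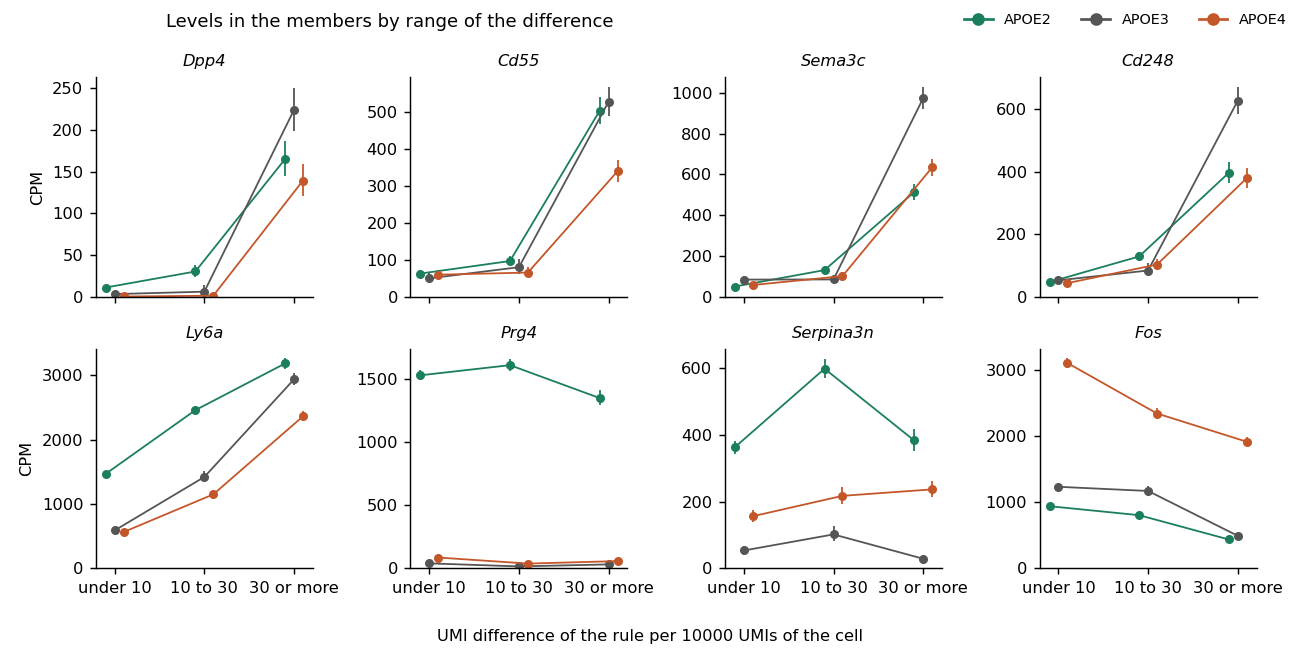
Levels (CPM, linear axis) of 8 genes in members under 10, from 10 to 30 and at 30 or more of the choosing difference per 10000 UMIs, 1 line per library with exact Poisson 95% intervals. Dpp4, Cd55, Sema3c and Cd248 are far higher in the top range than in the others, Ly6a is higher in each range than in the one below it, Fos is lowest in the top range, and Prg4 lies at 1352 to 1613 CPM in APOE2 and at or under 86.7 CPM in the other libraries.

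Between genotypes, the named genes that were higher in the APOE2 than in the APOE3 members were Saa3, Lcn2, Prg4, Serpina3n and Timp1, all of which encode secreted proteins. Of 9074 genes with at least 100 UMIs in the APOE2 and APOE3 members together, 457 (5.04%) were 1.5-fold or more higher in APOE2 and 501 (5.52%) were lower. Saa3, an inducible serum amyloid A apolipoprotein, stood at 592 CPM (575 to 609) in APOE2, with 1 UMI in APOE3 and 5 UMIs in APOE4. Lcn2, the iron-siderophore-binding lipocalin, stood at 306 CPM (294 to 319), 2.10 CPM (0.846 to 4.34) and 3.85 CPM (2.32 to 6.02). Serpina3n, a secreted serine protease inhibitor, stood at 448 CPM (433 to 463), 55.3 CPM (47.6 to 63.9) and 198 CPM (186 to 211). APOE2 was the highest library for all of these, and for Serpina3n APOE4 also lay above APOE3.

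The bases before the start sites of these 3 genes are shown because acute-phase promoters are commonly described as bound by C/EBP and NF-kappa-B family factors. Each line gives 250 bases that end just before the start site, from RefSeq on GRCm38.p6, in the direction of transcription; capitals mark matches to the C/EBP-type motif TTGCNNAA or the kappa-B-type motif GGGNNTTTCC, where N is any base, searched on both strands.
Saa3, chr7:46715677-46715926, minus strand: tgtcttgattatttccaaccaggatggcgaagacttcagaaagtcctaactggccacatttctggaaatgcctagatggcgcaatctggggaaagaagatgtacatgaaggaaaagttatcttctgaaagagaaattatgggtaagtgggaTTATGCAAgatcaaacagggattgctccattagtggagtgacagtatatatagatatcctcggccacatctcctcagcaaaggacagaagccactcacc
Lcn2, chr2:32387740-32387989, minus strand: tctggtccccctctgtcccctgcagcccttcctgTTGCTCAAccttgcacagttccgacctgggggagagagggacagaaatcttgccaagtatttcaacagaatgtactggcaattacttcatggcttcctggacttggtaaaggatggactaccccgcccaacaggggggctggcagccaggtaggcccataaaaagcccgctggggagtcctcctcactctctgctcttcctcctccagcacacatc
Serpina3n, chr12:104406458-104406707, plus strand: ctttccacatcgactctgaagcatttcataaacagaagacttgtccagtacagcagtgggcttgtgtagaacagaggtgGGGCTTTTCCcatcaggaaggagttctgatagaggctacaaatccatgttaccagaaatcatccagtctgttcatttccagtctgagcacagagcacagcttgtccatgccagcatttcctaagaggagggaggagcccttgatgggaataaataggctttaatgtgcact
The match in Saa3 begins 99 bases before the start and that in Lcn2 216 bases before, both of the C/EBP type, and that in Serpina3n 171 bases before, of the kappa-B type. Of 32851 promoter windows of the same length, 3142 (9.56%) held the first motif and 464 (1.41%) the second. A match of letters is a description and shows no binding.

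The 3 genes were unevenly spread over cells. Saa3 was seen in 24 of the 608 APOE2 members, 1 cell held 27.4% of its UMIs, and its level was 78.5 CPM without the 6 cells that held the most. The log2 ratio of APOE2 to APOE3 for Saa3 was 10.94, and with a single APOE3 UMI its interval ran from 8.46 to 16.25. Lcn2 was seen in 165 APOE2 members (27.1%), with a log2 ratio of 7.18 (6.14 to 8.50). Serpina3n was seen in 390 APOE2 members (64.1%), 104 APOE3 members (37.7%) and 346 APOE4 members (72.7%), with a log2 ratio of 3.02 (2.80 to 3.24) for APOE2 to APOE3. It was thus the most widely carried of the 3 genes in each library.

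Prg4 and Timp1 were the other named genes higher in APOE2 than in APOE3. Prg4, the lubricating proteoglycan lubricin, stood at 1528 CPM (1500 to 1555), 31.3 CPM (25.5 to 37.9) and 64.5 CPM (57.6 to 72.0), a log2 ratio of APOE2 to APOE3 of 5.61 (5.33 to 5.90). It was seen in 344 APOE2 members (56.6%), and no cell held more than 6.60% of its UMIs there. Timp1, a metalloproteinase inhibitor, stood at 1383, 177 and 179 CPM, a log2 ratio of 2.96 (2.84 to 3.08). Prg4 was high in each range of the APOE2 members, at 1533, 1613 and 1352 CPM from lowest to top, whereas Timp1 was at 2082 CPM in the lowest range and 386 CPM in the top range. Prg4 is also a gene of mesothelial cells, and the 6 mesothelial genes summed to 68.3 CPM in the APOE2 members and 24.7 CPM in the APOE3 members. Without the members that held 5 or more UMIs of another cell type's markers, the log2 ratios were 6.20 for Prg4, 3.20 for Timp1, 8.34 for Saa3, 6.19 for Lcn2 and 2.85 for Serpina3n.

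The same direction was seen outside the members. In the Hhip/Inmt fibroblasts the log2 ratios of APOE2 to APOE3 were 8.16 for Saa3, 6.40 for Lcn2, 3.40 for Prg4, 2.83 for Serpina3n and 0.90 for Timp1. In smooth muscle cells they were 2.26, 4.73, 5.11, 4.07 and 0.80 for the same genes, at levels of 0.548, 13.3, 7.57, 5.96 and 32.3 CPM in APOE2. Free RNA in the droplets can give such low levels, and its part was not tested.

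The named genes lower in APOE2 than in APOE3 were Fmod, Sfrp2, Itih5, Fblim1 and Hbb-bs. Fmod stood at 53.1, 189 and 164 CPM in APOE2, APOE3 and APOE4, a log2 ratio of APOE2 to APOE3 of -1.83 (-2.01 to -1.65). Sfrp2, a secreted Wnt modulator, stood at 473, 1497 and 1263 CPM (-1.66), Itih5, a hyaluronan-binding protein, at 52.3, 167 and 76.5 CPM (-1.67), and Fblim1, a filamin-binding adhesion protein, at 33.6, 113 and 101 CPM (-1.75). For all 4 the APOE2 value was the lowest and its interval lay below those of the other libraries. In the Hhip/Inmt fibroblasts the log2 ratios were -1.32 for Fmod, -0.68 for Sfrp2, -1.25 for Itih5 and -2.05 for Fblim1. The globin gene Hbb-bs, from red blood cells, stood at 103, 547 and 203 CPM (-2.40), and 1 cell held 99.1% of its APOE3 UMIs. Without the 1% of members with the most Hbb-bs, its log2 ratio was 2.70, the opposite direction.

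Chemokine genes were higher as a list in the APOE2 members than in the APOE3 members. Of 15 chemokines and cytokines with enough UMIs, 10 were 1.5-fold or more higher and 2 (Ccl11 and Ackr3) were lower. Over all genes 5.04% were higher and 5.52% lower. The list had a median log2 ratio of 0.88 against -0.01 over all genes. In APOE4 against APOE3, 5 of 13 were higher and 2 (Ccl11 and Il33) lower, beside 4.77% and 4.47% of all genes. The median there was 0.24 against -0.08 over all genes. Ccl2 and Ccl7, which draw monocytes, stood at 158, 29.8 and 77.3 CPM and at 142, 19.8 and 79.5 CPM, log2 ratios of 2.41 (2.11 to 2.71) and 2.84 (2.48 to 3.22). Il33 stood at 379, 221 and 124 CPM. Cxcl14, a chemokine of epithelial and stromal cells, had 555 UMIs (69.8 CPM) in APOE2 and 0 UMIs in APOE3 and APOE4, which allows up to 0.902 and 0.608 CPM. The complement gene C4b stood at 340, 77.0 and 105 CPM (2.14). In the Hhip/Inmt fibroblasts the APOE2 to APOE3 log2 ratios were 0.91 for Ccl2, 3.58 for Ccl7 and 1.98 for C4b. The summed level of the chemokine list was nearly level there, at 2195, 2096 and 2008 CPM, against 2661, 1894 and 2018 CPM in the members.

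More of the progenitor-type genes were lower than higher in APOE2 against APOE3. Of 34 with enough UMIs, 14 were 1.5-fold or more lower and 2 (Tnfaip6 and Il33) were higher, with a median of -0.48. Over all genes 5.52% were lower and 5.04% higher, with a median of -0.01. Sema3c had a log2 ratio of -1.43 (-1.54 to -1.33), Smpd3 -1.28 and Cd248 -1.06, while Ly6a, at 0.30, was higher in APOE2. Since the top range of the choosing difference held fewer of the APOE2 members, the list was also read within ranges. In the lowest range 7 of 27 were higher and 2 lower, with a median of 0.18, where 6.41% of all genes tested were higher and 6.41% lower. In the middle range 16 of 28 were higher and 2 lower, with a median of 0.67, against 10.6% and 8.01% of all genes. In the top range 2 of 34 were higher and 10 lower, with a median of -0.31, against 4.69% and 6.16% of all genes. The median was thus negative in the top range, as over all members, and positive in the others. These ranges are cuts of the choosing difference itself, and the top range has no upper limit. The upper quartile of that difference was 28.25 UMIs in the APOE2 members and 57.5 UMIs in the APOE3 members. The reading by range is therefore a description only.

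Other lists read between APOE2 and APOE3 were mixed. Over all genes 5.04% were 1.5-fold or more higher in APOE2 and 5.52% lower, with a median log2 ratio of -0.01. Among 17 collagen chains 4 were 1.5-fold higher in APOE2 (Col3a1, Col4a1, Col4a2 and Col8a1) and none was lower, but the median was -0.13. Among 8 small leucine-rich proteoglycans 3 were lower (Fmod, Ogn and Omd) and none was higher, with a median of -0.50. Among 16 proteases and inhibitors 3 were higher (Mmp3, Timp1 and Pcsk5) and 7 were lower, with a median of -0.40. Among 20 elastic fibre genes 4 were lower (Mfap2, Mfap4, Fbln5 and Emilin2) and none was higher, with a median of -0.29. Of the 19 tissue-resident-type genes 7 were higher and 3 lower, Fabp4 and Apod, both lipid-binding proteins, being higher with log2 ratios of 2.06 and 1.73.

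The named genes higher in APOE4 than in APOE3 included immediate early genes, which encode rapid-response transcription factors and their regulators. Of 8068 genes, 385 (4.77%) were 1.5-fold or more higher in APOE4 and 361 (4.47%) were lower. Fosb stood at 229, 208 and 893 CPM in APOE2, APOE3 and APOE4 (intervals 219 to 240, 193 to 224 and 867 to 920), and the ratio of APOE4 to APOE3 was 2.10 on the log2 scale (1.98 to 2.22). Fos stood at 802 CPM (782 to 822), 921 CPM (889 to 955) and 2530 CPM (2486 to 2575). Both genes were thus close between APOE2 and APOE3 and higher in APOE4. Ier3, an early-response survival gene, stood at 212, 114 and 365 CPM (1.68), and Ints6, a subunit of the Integrator complex, at 89.2, 76.7 and 242 CPM (1.66). The neutrophil chemokine gene Cxcl1 stood at 500, 172 and 542 CPM (1.66), and Serpina3n had 1.84 on the same scale.

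Of 18 immediate early and heat shock genes, 12 were 1.5-fold or more higher in APOE4 than in APOE3 and none was lower. Over all genes 4.77% were higher and 4.47% lower. The list had a median of 0.88 against -0.08 over all genes. Against APOE2, 12 were higher as well and none lower, beside 5.53% and 6.1% of all genes, with a median of 0.81 against -0.05. Between APOE2 and APOE3 only Ier3 passed. For APOE4 to APOE3, the heat shock gene Hsp90aa1 had a log2 ratio of 0.66 and passed, and Hspa1a had 0.45 and did not. The summed level of the list was 10058, 10398 and 18239 CPM in the members, 10117, 11781 and 21776 CPM in the Hhip/Inmt fibroblasts and 14303, 17874 and 24645 CPM in smooth muscle cells. APOE4 was the highest library in these 3 classes, whereas in macrophages the sums were 27286, 44412 and 31413 CPM and APOE3 was the highest. The median mitochondrial share of UMIs, a common sign of RNA quality, was also highest in APOE4, at 1.31%, 1.04% and 1.53% in the members, 1.62%, 1.37% and 2.01% in the Hhip/Inmt fibroblasts and 2.20%, 1.66% and 2.88% in smooth muscle cells, and its part in these differences was not tested. In smooth muscle cells the log2 ratios of APOE4 to APOE3 were 0.95 for Fosb, 0.67 for Fos, 1.53 for Ier3 and 1.14 for Ints6.

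**Figure D5:**
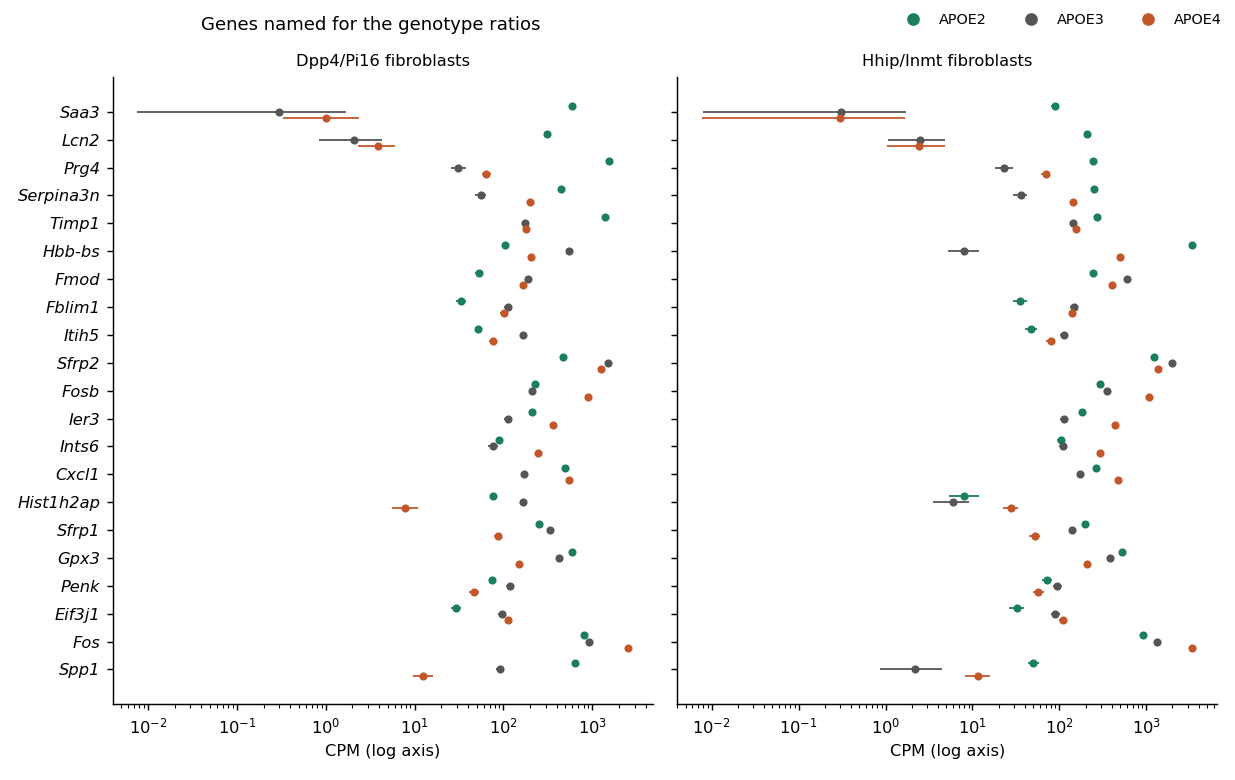
Levels (CPM, log axis) of the 21 genes named between genotypes in the members and in the Hhip/Inmt fibroblasts, 1 point per library with exact Poisson 95% intervals. Saa3, Lcn2, Prg4, Serpina3n and Timp1 are highest in APOE2 and Fosb and Fos highest in APOE4 in both classes, while Hbb-bs and Hist1h2ap change order between the classes.

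The named genes lower in APOE4 than in APOE3 were Hist1h2ap, Sfrp1, Gpx3, Hbb-bs and Penk. Sfrp1, a secreted Wnt inhibitor, stood at 255, 333 and 86.0 CPM in APOE2, APOE3 and APOE4, which for APOE4 against APOE3 is -1.95 (-2.12 to -1.79) in log2. Gpx3, the secreted glutathione peroxidase, stood at 590, 418 and 150 CPM (-1.48), and Penk, the enkephalin precursor, at 75.2, 118 and 46.4 CPM (-1.35). In these 3 genes APOE4 was the lowest library, and the Hhip/Inmt fibroblasts had log2 ratios of -1.45, -0.86 and -0.73. The histone gene Hist1h2ap had -4.39 and Hbb-bs -1.43, and single cells held 97.6% and 99.1% of their APOE3 UMIs. Without the 1% of members with the most UMIs of each gene, the ratios were 0.52 and 2.67, the opposite direction. Both belong to families of near-identical copies. Of 34 progenitor-type genes 14 were 1.5-fold or more lower in APOE4 than in APOE3 and 1 (Tnfaip6) was higher, with a median of -0.45. Over all genes 4.47% were lower and 4.77% higher, with a median of -0.08. In the lowest range 2 of 23 were higher and 1 lower, with a median of -0.05, against 4.85% and 4.12% of all genes tested there. In the middle range 5 of 24 were higher and 2 lower, with a median of -0.01, against 7.00% and 4.79%. In the top range 2 of 34 were higher, near the 5.95% of all genes, and 12 were lower, against 5.14%, with a median of -0.44. As for APOE2, the ranges are cuts of the choosing difference itself, and this reading is a description only. Of 18 tissue-resident-type genes, 7 were lower and 1, the adhesion molecule gene Icam1, was higher, beside 4.47% and 4.77% of all genes. Their median was -0.34, against -0.08 over all genes.

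Between APOE4 and APOE2 the same libraries were read against each other, so these values restate the differences above from another side. Of 9361 genes 518 (5.53%) were 1.5-fold or more higher in APOE4 and 571 (6.1%) were lower. The named higher genes were Fosb, with a log2 ratio of 1.96, Fos, with 1.66 (1.61 to 1.70), and Eif3j1, a subunit of translation initiation factor eIF3, at 29.4, 97.1 and 114 CPM in APOE2, APOE3 and APOE4 (1.95). Eif3j1 has a near-identical copy, Eif3j2, with which its reads can be confused, so its values are uncertain; it had log2 ratios of 1.76 in the Hhip/Inmt fibroblasts and 1.81 in smooth muscle cells. The named lower genes were Saa3 (-9.19, interval -10.81 to -7.97), Lcn2 (-6.31) and Spp1, the secreted phosphoprotein osteopontin, at 644, 92.0 and 12.6 CPM (-5.68). Spp1 was seen in 49 APOE2 members, and 1 of them held 55.8% of its UMIs. Without the 1% of members with the most Spp1 (6, 3 and 5 cells), its levels were 23.1, 1.53 and 1.24 CPM, and the log2 ratio of APOE4 to APOE2 was -4.11. Spp1 is also a gene of foamy macrophages. The 6 macrophage genes together were at 9.19 CPM in the APOE2 members and 9.53 CPM in the APOE4 members, but the gate had left out cells with 3 or more C1q UMIs, and the part of macrophage RNA in the Spp1 values was not tested.

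Of 13 fibroblast genes the study itself named, 1 was 1.5-fold or more higher in APOE2 than in APOE3 and 1 was lower. Over all genes 5.04% were higher and 5.52% lower. In APOE4 against APOE3, 1 was higher and 1 lower, beside 4.77% and 4.47% of all genes. In APOE4 against APOE2, 1 was higher and 3 were lower, beside 5.53% and 6.1% of all genes. The study read these genes on the same libraries, so the list is no independent evidence of a direction. Its clusters of fibroblasts and fibroblast-like cells included cells high in smooth muscle genes, whereas the gate here kept Acta2 and Tagln under 1%. The sets of cells thus differ. Against APOE3, APOE2 was higher for Fgf7, a growth factor for epithelial cells (0.81), and lower for Lama2, a laminin chain (-0.60), and APOE4 was higher for the calcium-binding S100a4 (0.96) and lower for the complement component C3 (-0.67). C3 stood at 1551 CPM (1523 to 1578), 1193 CPM (1156 to 1230) and 750 CPM (726 to 774), and in APOE4 it was lower than in APOE2 by a log2 ratio of -1.05. Ly6a had a log2 ratio of -0.74 and Fgf7 of -0.88 in APOE4 against APOE2, and Lama2 of 0.83. The lipid droplet gene Plin2 stood at 48.7, 41.8 and 33.9 CPM, and Fap, the fibroblast activation protein gene, at 42.0, 52.9 and 44.6 CPM. The Fap intervals of all 3 libraries overlapped. Medag, an adipogenesis-linked gene, stood at 255, 216 and 189 CPM, and Fbln1, an elastic fibre and basement membrane glycoprotein, at 992, 1003 and 845 CPM.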

How the data were processed

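Whole aortas were profiled by droplet single-cell RNA sequencing in 1 pooled library per APOE genotype. The authors deposited filtered matrices of raw UMI counts for 32285 genes, one per library, aligned to mm10, with Cell Ranger 7.0.1 named in the file headers. The study's methods name another release, and whether reads in introns were counted is not given in the sources used here. All values are sums of these counts over the cells of a class in a library, given as CPM with exact Poisson intervals. Shares have exact Clopper-Pearson intervals and ratios exact conditional binomial intervals, all at 95% and for counting error only. No count model or test was run, since cells are not replicates. Members held 7947544, 3326348 and 4930453 UMIs in APOE2, APOE3 and APOE4.

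Genes were compared between classes at 2-fold and between genotypes at 1.5-fold with at least 100 UMIs, with 0.5 counts added to both sides for calls, ranks and list medians. Reference classes were smooth muscle cells (Acta2 and Tagln at least 3%, Dcn under 0.1% of UMIs), macrophages (at least 10 UMIs of C1qa, C1qb and C1qc) and lymphocytes (at least 3 UMIs of their markers). Genes named between classes were the 12 highest and 12 lowest ratios by the library closest to 0, at 50 CPM or more in the higher class. Between genotypes they were the 5 highest and 5 lowest (3 for APOE4 to APOE2), at 100 CPM or more. Genes of the rule, mitochondrial and unnamed gene models were left out. Other genes given with values come from the lists or were chosen after their values were seen. The members and lists were chosen with earlier results of these data known. Doublets were kept in the main values and scored with Scrublet in scanpy 1.11.5, whose automatic threshold called 0, 1 and 1 cells. Alternatives changed the threshold, UMI minimum, doublets, depth by thinning, gene minimum, single genes and single libraries. Counting scripts used Python 3.11.15 (pandas 2.3.3, scipy 1.17.1, numpy 2.4.6) and were tested on simulated data.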

Additional observations from a re-analysis of the deposited data

Results flagged for a closer look

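For 2 genes, in 3 comparisons, the members and the Hhip/Inmt fibroblasts lay on opposite sides between the same libraries, and the difference between the classes was not tested. Hbb-bs, a beta-globin gene of red blood cells, had a log2 ratio of APOE2 to APOE3 of -2.40 in the members and 8.69 in the Hhip/Inmt fibroblasts, and for APOE4 against APOE3 the values were -1.43 and 5.96. Hist1h2ap, a replication-dependent histone gene, had a log2 ratio of -4.39 for APOE4 against APOE3 in the members and 2.22 in the Hhip/Inmt fibroblasts. In the APOE3 members 1 cell held 1802 of 1819 Hbb-bs UMIs and 1 cell held 538 of 551 Hist1h2ap UMIs.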

How the results depend on the processing

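With a threshold of 3 the members were 44.7% (APOE2) and 45.7% (APOE4) of the gated fibroblasts and 4.69% of all APOE2 cells, and with a threshold of 1 they were 56.3% and 54.8% of the gated fibroblasts and 5.91% and 6.43% of all cells. From 5000 UMIs they were 4.73% (APOE2) and 5.23% (APOE4) of all cells, and without the highest Scrublet scores 4.61% in APOE2. After thinning they were 33.7%, 31.1% and 35.7% of the gated fibroblasts and 3.52%, 2.95% and 4.19% of all cells. Shares of gated fibroblasts were 22.7%, 12.0% and 9.81% with Pi16 left out, and 44.7% in APOE2 with Ebf2 left out. From 20 UMIs per gene, more genes entered, and 135 were 2-fold higher and 52 lower between the classes, 1082 were 1.5-fold higher and 1163 lower in APOE2 against APOE3, 918 and 1033 in APOE4 against APOE3, and 1155 and 1257 in APOE4 against APOE2. Leaving out 1 library gave 71 to 95 genes 2-fold higher and 36 to 55 lower, the 55 without APOE4. The other 120 values of shares and counts stayed within their interval or within 1.5 times.

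Of 526 recomputed gene ratios, 425 moved by less than their interval, 91 by more, and 10 changed sign. The 10 were all Hbb-bs and Hist1h2ap. For APOE2 to APOE3, Hbb-bs was 4.37 without high Scrublet scores, 3.88 after thinning, 2.17 without members that held markers of another cell type and 2.70 without the 1% of members with most of the gene. For APOE4 to APOE3 it was 5.71, 5.43, 2.83 and 2.67 in the same order, and Hist1h2ap was 0.42 without members that held other markers and 0.52 without the top 1%. The removal of members with other markers and of the top 1% was chosen after seeing the data. No paired analysis was possible because each genotype had 1 library. With 1 library per genotype, differences between pools of mice, dissections and runs cannot be told apart from genotype.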

Other observations

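Markers of further cell types in the members, summed per list in APOE2, APOE3 and APOE4, were as follows. The 5 endothelial genes reached 37.1, 22.5 and 40.8 CPM, the 4 T lymphocyte genes 0.126, 0 and 10.1 CPM, and the 4 B lymphocyte genes 1.13, 2.41 and 3.85 CPM. In APOE4, 1 member held 48 T lymphocyte UMIs. The 4 neutrophil genes reached 3.52, 2.10 and 1.01 CPM, the 4 Schwann cell genes 7.93, 7.52 and 7.30 CPM, and the 4 chondrocyte genes 1.89, 6.61 and 1.83 CPM.

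Sterol synthesis genes, which make cholesterol and respond to its supply, were read across the members as well. Their summed level was 142, 179 and 213 CPM in APOE2, APOE3 and APOE4, with 151, 180 and 239 CPM in the Hhip/Inmt fibroblasts and 259, 325 and 284 CPM in smooth muscle cells. Of 8 with enough UMIs, 4 (Idi1, Fdps, Msmo1 and Srebf2) were 1.5-fold or more higher in APOE4 than in APOE2 and none was lower, with a median log2 ratio of 0.56. Over all genes 5.53% were higher and 6.1% lower, with a median of -0.05. The summed level was also higher in APOE4 than in APOE2 in the Hhip/Inmt fibroblasts and in smooth muscle cells. Among 12 Hox genes 4 (Hoxa7, Hoxb5, Hoxb6 and Hoxb8) were 1.5-fold or more higher in APOE4 than in APOE2, beside 5.53% of all genes. Among 9 read between APOE2 and APOE3, Hoxb5 and Hoxb6 were lower in APOE2, beside 5.52% of all genes.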
